A study of Mus musculus with 22 samples.

Results

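The levels of 9 cold-inducible and heat shock genes were followed across social rank and cage in mouse brain. They were Rbm3 and Cirbp, which encode cold-inducible RNA-binding proteins, and Hspa1a, Hspa1b, Hspa8, Hsp90aa1, Hsph1, Dnajb1 and Hspa5, which encode chaperones. These are the 9 rows, of 24421 genes in the count tables of both sexes, whose symbol is a listed member, and all 9 passed the filter on low counts in each sex. The genes were picked by name with results of these libraries already known. Their p-values therefore place them among all genes tested and are not independent evidence. Total RNA of the right brain hemisphere was sequenced from young adult C57B6/J OlaHsd mice, untreated and housed in groups of 4. The tube test, in which cage mates push each other out of a narrow tube, had ranked each mouse as dominant or submissive. There were 7 dominant and 7 submissive males from 7 cages and 4 dominant and 4 submissive females from 4 cages. Each cage gave 1 mouse of each rank, and both were killed together in the morning, a few days after the rank was assessed. The library names tie both mice to their cage, by a number for male cages 1 to 7 and female cages 1 and 2 and by the names Gr1 and Gr2 for female cages 3 and 4. Some female groups of the study had been newly formed from mice of intermediate rank and tested again. The libraries of males and of females carry different name prefixes, whose meaning is not given in the sources used here, so sex and what the prefixes stand for cannot be told apart.

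Cold-inducible RNA-binding proteins and heat shock proteins are the classical pair of opposite temperature responses. Mild cooling raises Rbm3 and Cirbp, glycine-rich proteins that bind messenger RNA, and in brain both are known to follow the daily rhythm of body temperature. Warming and unfolded protein activate heat shock factor, which raises the inducible chaperones. In the cytosol, Hspa1a and Hspa1b encode the inducible Hsp70, Hspa8 the constitutive Hsc70, Dnajb1 a J-domain partner that stimulates Hsp70, Hsph1 a nucleotide exchange factor of the Hsp110 family, and Hsp90aa1 the inducible form of Hsp90. Hspa5 encodes BiP, the Hsp70 of the endoplasmic reticulum, and answers to the unfolded protein response rather than to heat shock factor. Neither brain nor body temperature was measured in these mice.

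The 22 libraries held 12403943 to 16488762 counted reads each, so that 3 counts, taken as the detection floor, were worth 0.181 to 0.243 CPM, the reads of a gene scaled to a common library total. Markers of neurons, astrocytes, oligodendrocytes, microglia and endothelium were present in every library, as the labelled tissue would have. Dominant male 1 stood apart, with 15.9 CPM summed over 4 cerebellar markers against 101 to 197 CPM in the other males. In submissive female 3, the 4 pituitary markers summed to 22.6 CPM, against 1.70 to 3.01 CPM in the other females. Without dominant male 1, the log2 fold change of Rbm3 between male ranks was 0.12 in place of 0.11. Without submissive female 3, that of Rbm3 in females was -0.30 and that of Cirbp -0.32, in place of -0.27 and -0.30. In whole-hemisphere RNA, fewer cells of a type and less RNA per cell cannot be told apart.

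The 9 genes covered a wide range of levels when counts were set against exon length. On the scale of CPM per kilobase of exon, averaged over the 22 libraries, Hspa8 was highest with 655 ± 27.4 (SD), followed by Hsp90aa1 with 306 ± 17.1 and Hspa5 with 159 ± 22.2. Hsph1 had 80.8 ± 6.54 and Cirbp 48.4 ± 6.49 CPM per kilobase. Rbm3 with 15.5 ± 2.07 and Dnajb1 with 12.9 ± 1.01 CPM per kilobase overlapped in their ranges. The inducible pair was lowest, with 1.39 ± 0.270 CPM per kilobase for Hspa1b and 1.36 ± 0.231 for Hspa1a, and their ranges overlapped. Hspa1a and Hspa1b were counted 34 to 83 times per library, so their values carry the largest counting error of the 9. The spread over all 22 libraries was widest for that pair of lowest level and narrowest for the pair of highest level. The highest library exceeded the lowest 1.98-fold for Hspa1b, 1.85-fold for Hspa1a, 1.69-fold for Cirbp, 1.63-fold for Hspa5 and 1.54-fold for Rbm3. It did so 1.39-fold for Dnajb1, 1.37-fold for Hsph1, 1.23-fold for Hspa8 and 1.21-fold for Hsp90aa1.

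The genes are given here by their counted exons in mm10. Rbm3 (ENSMUSG00000031167) lies on chromosome X, 8138975 to 8145880, minus strand, with 3582 exon bases, of which 94 overlap exons of the antisense gene Rbm3os. Cirbp (ENSMUSG00000045193) lies on chromosome 10, 80167841 to 80171653, plus strand, with 1256 exon bases. Hspa1a (ENSMUSG00000091971; chromosome 17, 34969359 to 34972156) and Hspa1b (ENSMUSG00000090877; chromosome 17, 34956429 to 34959238) are single-exon neighbours on the minus strand. Of all stretches of 85 bases, the read length, in the annotated transcripts of Hspa1a, 50.4% also occur in Hspa1b, so the split of reads between both genes is uncertain. Of the stretches of Rbm3, 9.54% occur in 6 other genes, most of them in Rbm3-ps (5.61%). Hspa8 (ENSMUSG00000015656; chromosome 9, 40801273 to 40805199, plus strand) shares 56.2% of such stretches with Gm15459, and Hsp90aa1 (ENSMUSG00000021270; chromosome 12, 110691036 to 110696395, minus strand) shares 36.5% with Gm12346. Whether reads that match several genes were counted is not given in the sources used here. The levels of genes with shared stretches may therefore be too low, by unlike amounts. No 85-base stretch of Cirbp, Hsph1 (ENSMUSG00000029657; chromosome 5, 149616845 to 149636315, minus strand), Dnajb1 (ENSMUSG00000005483; chromosome 8, 83608175 to 83612653, plus strand) or Hspa5 (ENSMUSG00000026864; chromosome 2, 34772090 to 34776529, plus strand) occurs in another gene's transcripts.

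RefSeq promoter windows (GRCm38.p6) were matched to 6 of the 9 genes, namely Cirbp, Hspa1a, Hspa1b, Hsph1, Dnajb1 and Hspa5. The inducible Hsp70 pair is shown first because their near identity bears on every value given for them. The 250 bases before each start are printed 5′ to 3′ on the gene's strand, with capitals for a heat shock element of 2 units (GAANNTTC) and for the reverse match of the mild cold response element (TCCCCGCC).
Hspa1a, chr17:34972157-34972406, minus strand: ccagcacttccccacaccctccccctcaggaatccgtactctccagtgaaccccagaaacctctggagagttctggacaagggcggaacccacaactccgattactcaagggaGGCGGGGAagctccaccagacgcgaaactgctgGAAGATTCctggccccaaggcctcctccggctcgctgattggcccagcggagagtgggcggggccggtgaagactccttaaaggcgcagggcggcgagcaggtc
Hspa1b, chr17:34959239-34959488, minus strand: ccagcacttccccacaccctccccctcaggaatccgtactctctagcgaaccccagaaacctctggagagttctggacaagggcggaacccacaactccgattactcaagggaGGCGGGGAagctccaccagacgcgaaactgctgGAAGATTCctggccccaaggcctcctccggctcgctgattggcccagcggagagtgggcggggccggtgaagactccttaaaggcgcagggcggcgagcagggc
Both windows are 98.8% identical. They differ at 3 positions, counted from 1 at the 5′ end with the base of Hspa1a first, namely C44T, T47C and T249G. The heat shock element, GAAGATTC, stands 104 to 97 bases before the start of both genes, and the cold element 137 to 130 bases before it. Both letter strings are common, since GAANNTTC was found on either strand in 6.69% and TCCCCGCC in 4.64% of all 32851 windows of that length.

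Shorter stretches of the other promoters hold a string that matches the element known for each gene's own response. Whether the strings act was not tested. The Cirbp stretch holds the cold element on the gene's strand, 247 to 240 bases before the start at 80167839. The Cirbp window of the start at 80168171 does not hold it. The Hsph1 stretch holds a heat shock element with the units in the other order (TTCNNGAA). The Hspa5 stretch holds the endoplasmic reticulum stress element, which joins CCAAT and CCACG across a spacer. Each is in capitals.
Cirbp, chr10:80167589-80167618, plus strand: ctgTCCCCGCCtcctagtcgctagcgggcg
Hsph1, chr5:149636351-149636380, minus strand: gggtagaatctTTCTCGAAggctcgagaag
Hspa5, chr2:34772019-34772048, plus strand: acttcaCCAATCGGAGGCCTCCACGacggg
The Hspa5 element is the rare string of the set, found in 0.113% of all windows, while TTCNNGAA was found in 7.17%. None of these elements was found in the Dnajb1 windows. The longer heat shock element of 3 units, held by 0.466% of all windows in either phase, was found in none of the members' windows.

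**Figure D1:**
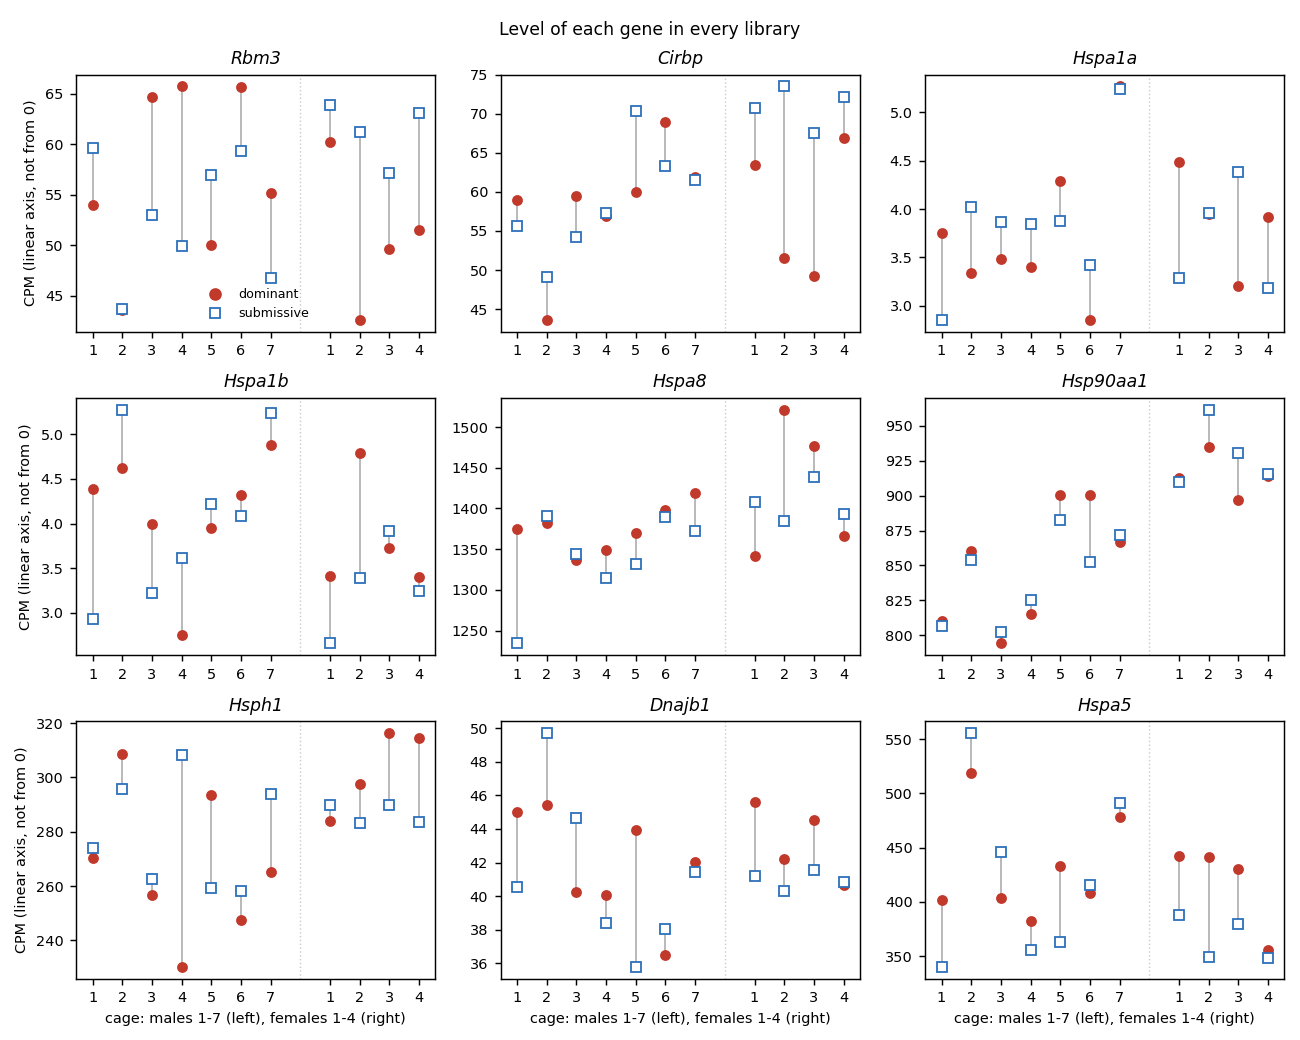
Level of each of the 9 genes in every library, in CPM on linear axes that do not start at 0, by cage (males left, females right). Filled red circles are dominant and open blue squares submissive mice, joined within a cage. In females every dominant mouse lies below its cage mate for Rbm3 and Cirbp and above it for Hspa5, whereas in males the order differs between cages.

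The comparison of ranks asked whether the position of a mouse in its cage went along with the level of these genes. In females, both cold-inducible genes had a lower level in the dominant than in the submissive mouse of all 4 cages, and Hspa5 had a higher one. None of the 9 genes passed the adjusted threshold when the mice were compared by rank alone. That fit called 14 of 14865 genes, or 0.0942%, at an adjusted p under 0.05. When the cage was added as a block, Cirbp and Rbm3 passed, unless the dependence of counts on exon length was removed as well. The blocked fit called 36 genes, or 0.242% of those tested.

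Cirbp, the cold-inducible RNA-binding protein in the narrow sense, was the member with the smallest p in females. It reached 63.5, 51.6, 49.2 and 66.9 CPM in dominant females of cages 1 to 4, and 70.7, 73.5, 67.5 and 72.2 CPM in their submissive cage mates. The ranks did not overlap, because the highest dominant female stayed just under the lowest submissive one, and the dominant mice varied more among themselves. The means were 57.8 ± 8.71 (SD, n = 4) and 71.0 ± 2.59 CPM (SD, n = 4), giving a log2 fold change of -0.30 (SE 0.0709) with an adjusted p of 0.124 by edgeR. With the cage as a block, the log2 fold change was -0.30 and the adjusted p 0.0360. The blocked fit called 0.0605% of all genes as lower in dominant females. Of all genes tested, 2.66% had every dominant female below every submissive one.

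Rbm3, which sustains translation and synapses in cooled neurons, showed the same direction. The dominant females of cages 1 to 4 had 60.2, 42.6, 49.6 and 51.6 CPM, and their submissive cage mates 63.9, 61.3, 57.2 and 63.1 CPM. The submissive mice lay close together, the ranks overlapped only through dominant female 1, and the widest gap was that of cage 2. With means of 51.0 ± 7.24 and 61.4 ± 2.99 CPM (SD, n = 4 each), the log2 fold change was -0.27 (SE 0.0705; adjusted p = 0.161). The blocked fit gave -0.27 with an adjusted p of 0.0445. Without dominant female 1 the log2 fold change was -0.36 and passed the threshold at an adjusted p of 0.0454, and without dominant female 2 it was -0.19. Of the 8 runs with 1 library left out, no other passed, and the adjusted p reached 0.431. Dominant females below their cage mate in all 4 cages, the pattern of Rbm3 and Cirbp, were seen for 8.82% of all genes tested. For both genes the call depended on the model and the filter. With the block and with the dependence of counts on exon length removed from each library, neither was called (adjusted p = 0.0830 for Rbm3 and 0.111 for Cirbp). DESeq2 called Rbm3 but not Cirbp by rank alone (adjusted p = 0.0389 and 0.182), with 0.518% of all genes called. Without a filter on low counts, edgeR called Rbm3, Cirbp and Hspa5 (adjusted p = 0.0232, 0.00644 and 0.0432), with 0.424% called.

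Hspa5, the chaperone of the endoplasmic reticulum, had the opposite direction. Dominant females of cages 1 to 4 had 442, 441, 431 and 355 CPM and their submissive cage mates 388, 349, 380 and 348 CPM. The dominant mice of cages 1 to 3 lay above all submissive females, while dominant female 4 lay among them. The means were 417 ± 41.7 and 366 ± 20.7 CPM (SD, n = 4 each), with a log2 fold change of 0.19 (SE 0.0542; adjusted p = 0.193). The blocked fit gave 0.18 and an adjusted p of 0.0622. Without dominant female 4, the log2 fold change was 0.26 and the adjusted p 0.0268. Of the 8 runs with 1 library left out, no other passed. The log2 fold change fell to 0.16 at the lowest, and the adjusted p reached 0.499. Dominant females above their cage mate in all 4 cages were seen for 8.72% of all genes tested.

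None of the cytosolic chaperones passed the threshold between female ranks in the rank or the blocked fit. The dominant females of cages 1 to 4 had 284, 298, 316 and 315 CPM of Hsph1, beside 290, 283, 290 and 284 CPM in their cage mates. It was thus higher in the dominant mouse of 3 of 4 cages (log2 fold change 0.080, SE 0.0345, adjusted p = 0.417). For Dnajb1 the values were 45.6, 42.2, 44.5 and 40.6 CPM beside 41.2, 40.3, 41.5 and 40.9 CPM, again higher in 3 of 4 cages (log2 fold change 0.078, adjusted p = 0.609). The most abundant pair, Hspa8 and Hsp90aa1, stood closest to no difference, with log2 fold changes of 0.021 (SE 0.0359) and -0.023 (SE 0.0285) and adjusted p-values of 0.887 and 0.840. Hspa8 ranged from 1341 to 1521 CPM in dominant females, a span that held all submissive females (1384 to 1439 CPM). For the inducible Hsp70 pair the errors were large. Hspa1b had a log2 fold change of 0.22 (SE 0.155, adjusted p = 0.675) and Hspa1a of 0.076 (SE 0.146, adjusted p = 0.903). Summed, which removes the uncertain split of reads, dominant females had 7.72 ± 0.787 and submissive females 7.01 ± 1.04 CPM (SD, n = 4 each), a difference smaller than either spread. Without adjustment, 4 of the 9 genes had a p under 0.05 (Rbm3, Cirbp, Hspa5 and Hsph1), where 10.5% of all genes did. Rbm3 and Cirbp were the pair that was lower in dominant females, where 4.08% of all genes had such a p.

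Some cell type markers also differed between female ranks, but only without adjustment. Of the 5 choroid plexus markers, 4 had an unadjusted p under 0.05 and were lower in dominant females, where 4.08% of all genes were, with a median log2 fold change of -0.30 over the list. None of them passed the adjusted threshold. Summed, they had 793, 862, 742 and 701 CPM in dominant females of cages 1 to 4, and 915, 672, 1022 and 962 CPM in their cage mates. Cage 2, in which Rbm3 and Cirbp differed most between cage mates, was the cage with the higher choroid plexus sum in the dominant mouse. Among the red cell markers 3 of 4 were at 0 in every library, and the other, Alas2, had a log2 fold change of 0.65 (adjusted p = 0.149). Pomc (-0.83), of the pituitary list whose sum was high in submissive female 3 only, and the neuron marker Tubb3 (-0.075) also had an unadjusted p under 0.05, but did not pass the adjusted threshold (0.385 and 0.375). In males, the median of the choroid plexus markers was 0.051, and 2 of 5 had an unadjusted p under 0.05 and were higher in dominant males, Ttr (log2 fold change 0.30) and Folr1 (0.37), neither passing the adjusted threshold. Among all genes, 1.32% had such a p between male ranks. Their summed level was 589 to 1065 CPM in dominant and 462 to 851 CPM in submissive males. The part of these cells in the differences of Rbm3, Cirbp and Hspa5 was not tested.

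**Figure D2:**
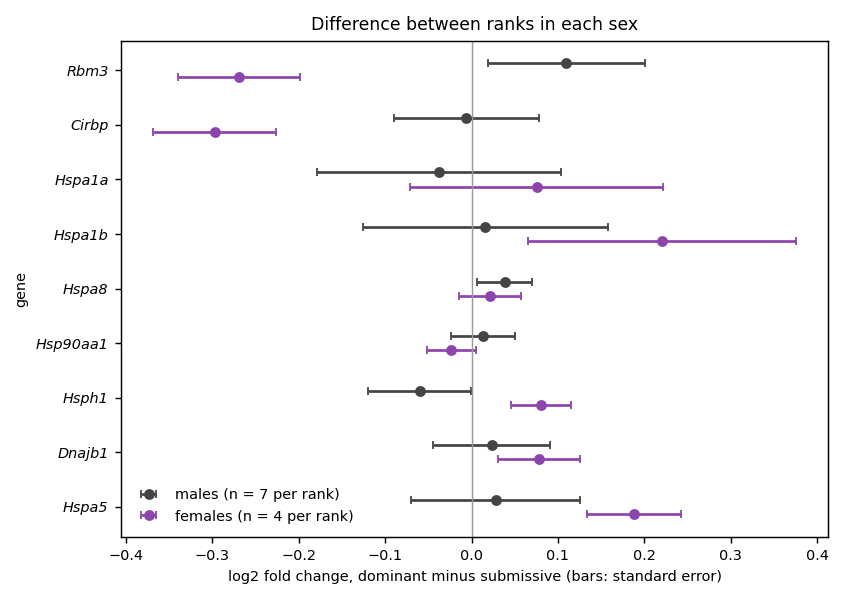
Log2 fold change between dominant and submissive mice for each gene (points) with its standard error (bars), in males (grey, 7 per rank) and females (purple, 4 per rank). Rbm3 and Cirbp lie at -0.27 and -0.30 in females and at 0.11 and -0.0061 in males.

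The other genes of the same pathways, listed with earlier results of these data known, gave no adjusted call between female ranks. Of 18 endoplasmic reticulum chaperones and unfolded protein response genes, 6 had an unadjusted p under 0.05, and all 6 were higher in dominant females, where 6.43% of all genes were. They were Manf (log2 fold change 0.17), Sdf2l1 (0.24), Calr (0.10), Dnajc3 (0.088), Hyou1 (0.076) and Hsp90b1 (0.072). The median log2 fold change of this list was 0.074, beside -0.0020 for all genes tested. Of 32 other cytosolic and mitochondrial chaperones and heat shock factors, 4 had an unadjusted p under 0.05, a share near the 10.5% of all genes. These were Chordc1, a co-chaperone of Hsp90, at 0.11, and in the other direction Bag3 at -0.33, the ubiquitin ligase Stub1 at -0.12 and the mitochondrial Hspa9 at -0.065. The median of that list was -0.0042, so its genes showed no common direction.

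Relatives and partners of the cold-inducible proteins did not share the lower level of Rbm3 and Cirbp. Of these 12 genes, 4 had an unadjusted p under 0.05, and all 4 were higher in dominant females, where 6.43% of all genes were. They were Tra2a (0.15), a splicing regulator, the kinases of splicing factors Clk4 (0.13) and Clk1 (0.12), and Rtn3 (0.070), whose messenger RNA is a known target of Rbm3. The median of the list was 0.058. Of 15 circadian clock genes, 5 had an unadjusted p under 0.05, all higher in dominant females (again beside 6.43% of all genes), led by Per2 (0.29), Per1 (0.23) and Per3 (0.15). None of these genes passed the adjusted threshold, and the hour at which each mouse was killed is not given in the sources used here.

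In males, no difference of the 9 genes between ranks exceeded the spread between mice in the test. No gene was called among 14737 tested, which is 0.0%, while 194 genes (1.32%) had an unadjusted p under 0.05, and none of the 9 was among them. DESeq2 called none either. The adjusted p was 1.00 for all 9 genes. Rbm3 ranged from 43.6 over a median of 55.1 to 65.8 CPM in dominant males, and from 43.7 over 53.0 to 59.6 CPM in the others. The log2 fold change of Rbm3 was 0.11 (SE 0.0911), and the dominant mouse had the higher level in 4 of 7 cages. Cirbp ranged from 43.6 over 59.4 to 68.9 CPM in dominant males, and from 49.1 over 57.3 to 70.3 CPM in submissive males. With a log2 fold change of -0.0061 (SE 0.0840), its ranks were close in the mean, although single cages differed in either direction.

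The chaperones showed equally mixed cages in males. Hspa5 ranged from 383 over 408 to 519 CPM in dominant males and from 340.0 over 416 to 556 CPM in their cage mates (log2 fold change 0.028, SE 0.0978), with the dominant mouse higher in 3 of 7 cages. Hsph1 ranged from 230.2 over 265 to 308 CPM in dominant males and from 258 over 274 to 308 CPM in their cage mates (log2 fold change -0.060, SE 0.0596), with the dominant mouse lower in 5 of 7 cages. Hspa8 had the reverse count, higher in the dominant mouse of 5 of 7 cages, at a log2 fold change of 0.038 (SE 0.0318). Hsp90aa1, Dnajb1, Hspa1b and Hspa1a had log2 fold changes of 0.013, 0.024, 0.016 and -0.038. All ranges of dominant and submissive males overlapped. No gene of the related lists had an unadjusted p under 0.05 between male ranks. The summed Hspa1a and Hspa1b level was 7.90 ± 1.22 CPM in dominant males and 7.96 ± 1.54 CPM in their cage mates (SD, n = 7 each).

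Whether the rank difference itself differed between the sexes was tested in a single fit of all 22 libraries. It called 0 of 15233 genes, or 0.0%, with 505 (3.32%) at an unadjusted p under 0.05, and DESeq2 called none either. Rbm3 had a female minus male difference in log2 fold change of -0.37 (SE 0.143, unadjusted p = 0.0155, adjusted p = 0.999). For Cirbp it was -0.28 (SE 0.136, unadjusted p = 0.0459, adjusted p = 0.999). The opposite sign was seen for Hspa5 with 0.17 (SE 0.146) and Hsph1 with 0.15 (SE 0.0863). A difference between the sexes was therefore not shown for any of the 9 genes.

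The comparison of cages asked whether the cage mates, killed together, shared a level. In males, Hspa5 and Cirbp differed between cages. A joint test of the cage terms, with rank in the model, called 868 of 14737 genes, or 5.89%, and 2 of the 9 members. The adjusted p was 0.00965 for Hspa5 and 0.0316 for Cirbp. Cell type markers moved between male cages too. In that test 1 of 4 endothelial markers (Cldn5, adjusted p = 0.00265), 1 of 4 astrocyte markers (Aldh1l1, 0.0370) and 1 of 4 neuron markers (Rbfox3, 0.0388) were called, and none of the oligodendrocyte, microglia, choroid plexus or cerebellar markers. Summed over the list, the cage means ran from 3069 CPM (cage 3) to 3453 CPM (cage 5) for neurons, from 1375 (cage 1) to 1585 CPM (cage 6) for astrocytes and from 86.3 (cage 4) to 110.3 CPM (cage 7) for endothelium. They ran wider for the choroid plexus, from 615 (cage 1) to 936 CPM (cage 5), and for the cerebellum, from 87.3 (cage 1, which holds dominant male 1) to 188 CPM (cage 6). The part of these cells in the cage differences of Hspa5 and Cirbp was not tested. Without adjustment, Hsp90aa1, Rbm3 and Hspa1a also had a p under 0.05, which makes 5 of 9 beside 22.3% of all genes.

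Hspa5 was highest in male cage 2, where the dominant mouse had 519 and the submissive mouse 556 CPM. Cage 7 followed with 478 and 491 CPM. The lowest mean was that of cage 4, with 383 and 355 CPM, 1.46-fold under that of cage 2. Both mice of cage 2 lay above every other male, and both mice of cage 7 above all males of cages 1 and 3 to 6. Leaving out cage 2 ended the call (adjusted p = 0.0912), and leaving out any other cage did not.

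Cirbp had its lowest values in the same cage 2, with 43.6 CPM in the dominant and 49.1 CPM in the submissive mouse, each below every male of the other cages. Its highest mean was that of cage 6, with 68.9 and 63.3 CPM, 1.43-fold above cage 2. The call ended without cage 2 (adjusted p = 0.280), without cage 6 (0.0664) and without cage 7 (0.0598). It also ended when the dependence of counts on exon length was removed from each library (0.0756). Within cages 1 to 4 Cirbp ranged from 43.6 to 59.4 CPM, and within cages 5 to 7 from 59.97 to 70.3 CPM, without overlap. That division of the cages is given by no label and was made after the values were seen. Neither Cirbp (adjusted p = 1.00 and 0.929) nor Hspa5 (1.00 and 0.901) was called within cages 1 to 4 or within cages 5 to 7.

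Rbm3 followed Cirbp at both ends, with the lowest cage mean in cage 2 (43.7 CPM) and the highest in cage 6 (62.5 CPM), a 1.43-fold range. It did not pass the threshold (adjusted p = 0.136) unless cage 1, that of the dominant male with few cerebellar reads, was left out (0.0309). Without that cage, 1841 genes were called in place of 868, and Hspa5 (adjusted p = 0.00120) and Cirbp (0.00651) stayed called. In most cages its cage mates lay further apart than those of Cirbp, as in cage 4 with 65.8 CPM in the dominant and 49.9 CPM in the submissive mouse. Hsp90aa1 had the closest cage mates of the set, for instance 900.3 and 883 CPM in cage 5 and 794 and 802 CPM in cage 3. Cages accounted for 93.3% of its variance on the log2 scale in males, once rank was removed, and for 86.3% and 85.4% in Hspa5 and Cirbp. For Rbm3 this share was 69.7% and for Hsph1 43.7%. The median over the 9 genes was 70.2% in males, beside 62.5% over all genes tested, and 63.5% in females, beside 49.9%.

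The remaining chaperones had their highest male cage mean in cage 2 or 7 with the exception of Hsp90aa1. Dnajb1 (47.6 CPM) and Hsph1 (302 CPM) peaked in cage 2 and were lowest in cage 6 (37.3 and 253 CPM). Hspa1a was high in both mice of cage 7, with 5.27 and 5.24 CPM, against 2.85 to 4.29 CPM in all other males. The sum of Hspa1a and Hspa1b was likewise highest in cage 7, at 10.1 and 10.5 CPM, against 5.78 to 9.30 CPM in the other males. Hspa8 (highest in cage 7) varied only 1.07-fold between cage means and Hsp90aa1 (highest in cage 5) 1.12-fold. None of these differences between cages passed the adjusted threshold.

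In females, the joint cage test called 11 genes, or 0.074%, and none of the 9 members. Hspa5 came closest (adjusted p = 0.602), with both mice of cage 4 at or below 355 CPM, and passed the threshold without cage 2 (0.0378). Rbm3 (adjusted p = 0.884) and Cirbp (0.894) also had an unadjusted p under 0.05, as had 5.11% of all genes. The female cage means of Rbm3 spanned 1.19-fold, from cage 2 (51.9 CPM) to cage 1 (62.0 CPM). Those of Cirbp likewise spanned 1.19-fold, from cage 3 (58.4 CPM) to cage 4 (69.5 CPM).

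**Figure D3:**
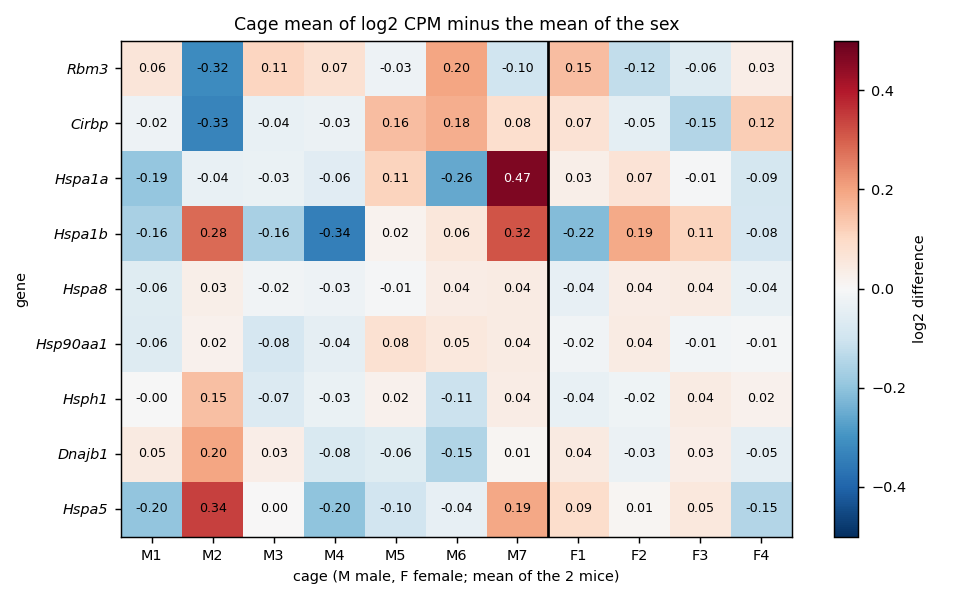
Cage mean of log2 CPM (mean of the 2 cage mates) minus the mean of the sex, for each gene and cage, with red for higher and blue for lower. Male cage 2 combines -0.32 for Rbm3 and -0.33 for Cirbp with 0.34 for Hspa5, 0.20 for Dnajb1 and 0.15 for Hsph1.

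Across the male cages, most correlations between cold-inducible and heat shock genes were negative, but this depended on the cages taken. Over the 7 cage means, 11 of the 14 correlations between a cold-inducible and a heat shock gene were negative, with a median Pearson r of -0.49. Without cage 2, 9 of the 14 were negative (median r = -0.20), and without both cages farthest from the median of the cold-inducible gene only 5 were (median r = 0.38). Of the 21 correlations among heat shock genes, 19 were positive (median r = 0.44), and 17 without cage 2. These are descriptions of 7 points that share the same libraries and depth, and the 9 genes are not independent of each other. In females, with 4 cage means, 12 of 14 were negative and 14 of 21 positive. The differences between female cage mates gave 9 of 14 negative (median r = -0.18) and only 9 of 21 positive (median r = -0.076). Those between male cage mates gave 11 of 14 negative (median r = -0.40) and 18 of 21 positive (median r = 0.28).

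Over the male cage means, the closest relation of a cold-inducible with a heat shock gene was that of Rbm3 with Hsph1. Over these 7 points, Pearson's r was -0.98 and Spearman's rho -1.0, so that the order of the cages in Hsph1 was the exact reverse of that in Rbm3. Leaving out both cages farthest from the median of Rbm3 gave r = -0.95. The relation also appeared between cage mates. Over the 7 differences between dominant and submissive mice, r was -0.82 and rho -0.86, and r was -0.84 without the farthest 2 cages. Cage 4 shows it best, with Rbm3 at 65.8 CPM and Hsph1 at 230.2 CPM in the dominant mouse, and 49.9 and 308 CPM in the submissive mouse. In females, r was -0.40 over 4 cage means and -0.37 over the differences within cages, closer to 0 than in males. The closest female pair was another, Rbm3 with Hspa1b (r = -0.99 over 4 cage means, and -0.66 over the 7 male ones).

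Other relations moved more with cages 2 and 7, the farthest from the median of Rbm3. Rbm3 and Cirbp had r = 0.70 over the male cage means, -0.024 without cage 2 and 0.11 without both cages. Rbm3 and Hspa5 had r = -0.78, -0.44 without cage 2 and 0.40 without both. For Rbm3 and Dnajb1, r was -0.81, -0.47 without cage 2 and -0.39 without both. Between cage mates, Dnajb1 and Hspa5 were closest among the heat shock genes, with r = 0.95 over the 7 differences and 0.93 without the farthest 2 cages. The dominant mouse was higher than its cage mate in both genes in cages 1, 4 and 5, and lower in both in cages 2, 3 and 6.

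**Figure D4:**
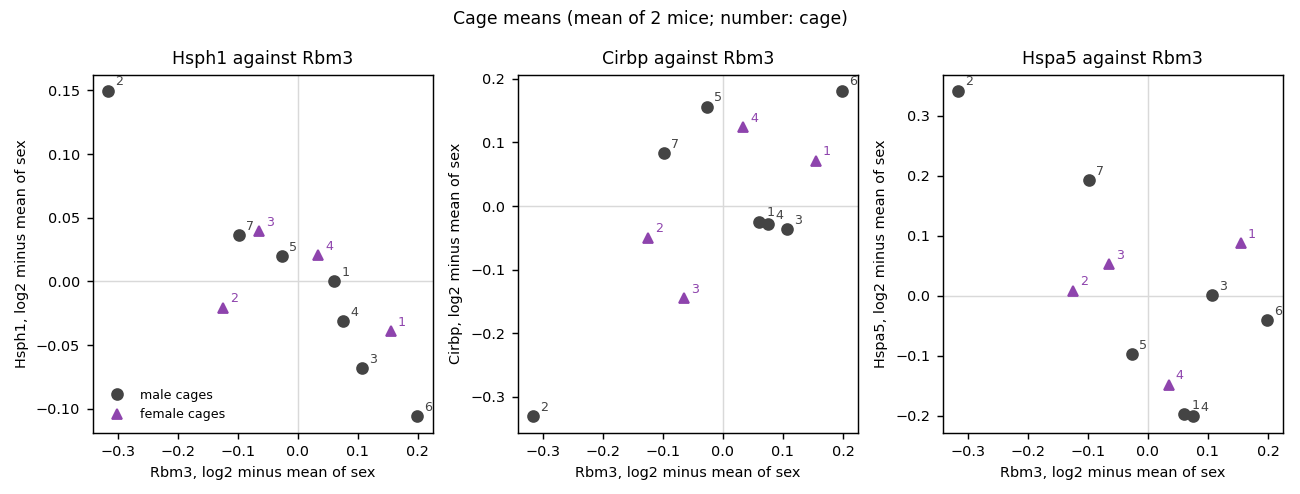
Cage means (log2 CPM minus the mean of the sex) of Hsph1, Cirbp and Hspa5 against Rbm3, with male cages as grey circles and female cages as purple triangles, each numbered. The higher a male cage lies in Rbm3, the lower it lies in Hsph1 (r = -0.98), whereas without male cage 2 the r of Rbm3 with Cirbp is -0.024 and that with Hspa5 -0.44.

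Some other genes of the pathways were called between male cages as well. Of 18 endoplasmic reticulum genes, 4 were called between male cages, and all 4 had their highest cage mean in cage 2, as Hspa5 had. Xbp1, the transcription factor of the unfolded protein response, had 130 CPM there and 93.8 CPM in cage 4 (adjusted p = 0.00579). Sdf2l1, a component of the BiP chaperone complex, had 10.9 CPM in cage 2 and 5.86 CPM in cage 4 (adjusted p = 0.0201). Manf and Creld2, both known to be induced by stress of the endoplasmic reticulum, had 49.8 and 17.6 CPM in cage 2 (adjusted p = 0.0427 and 0.0462). Of 32 other chaperones and heat shock factors, only Ahsa1, the activator of the Hsp90 ATPase, was called (adjusted p = 0.0462), with its highest mean in cage 7. A share of 5.89% of all genes was called in that comparison.

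Among relatives and partners of the cold-inducible proteins, 6 of 12 were called between male cages. The 4 with the smallest p were Clk4 (adjusted p = 0.00265), Clk1 (0.00719), Srsf5 (0.0142) and Hnrnpa2b1 (0.0203). All 4 were lowest in cage 5 and highest in cage 3 or 4, an order that neither Rbm3 nor Cirbp had. Clk1 had 116 CPM in cage 5 and 189 CPM in cage 3. Of 15 clock genes 3 were called, namely Per3 (adjusted p = 0.00495), Per2 (0.00991) and Per1 (0.0345). Per2 was highest in cage 2 with 30.5 CPM and lowest in cage 6 with 17.4 CPM, the reverse of Rbm3 and Cirbp at both ends. Per1 was lowest in cage 6 too but highest in cage 3, and Per3 was highest in cage 3 and lowest in cage 5. In females, no gene of any of these lists was called between cages.

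**Figure D5:**
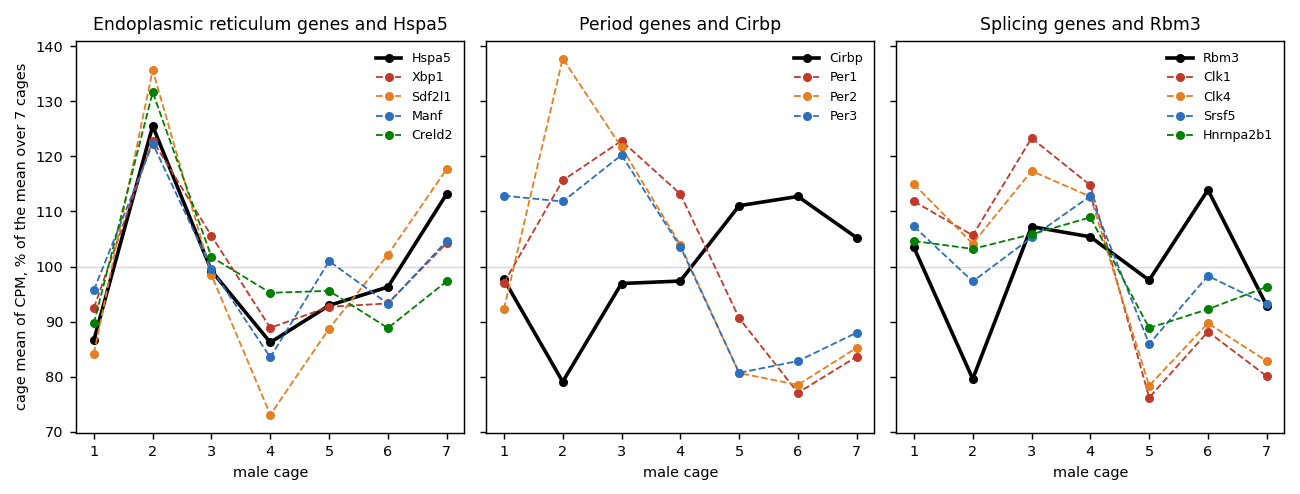
Cage means of CPM over the 7 male cages, as a percentage of the mean over all 7, for a member (black, solid) and the called genes of a related list (coloured, dashed). Hspa5 and the 4 endoplasmic reticulum genes peak together in cage 2, while Cirbp is low in cage 2 and high in cage 6 and Per2 the reverse.

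Genes with a pattern most like that of 4 members were sought by Pearson's r of log2 CPM over the 14 males, after removal of the rank means, among 14668 genes tested in both sexes. For Rbm3, the most similar were Slc6a20a (r = 0.90), Zfp786, 0610010F05Rik, Nxpe4 and, as the fifth, Ccdc107 (r = 0.88), and Cirbp came at place 248 (r = 0.64). At the opposite end stood Pdia3, a disulfide isomerase of the endoplasmic reticulum, with r = -0.92, ahead of Sipa1l2 and Zdhhc14, and Hsph1 was at place 14664 of 14668 (r = -0.88). Over the 8 females, Zfp786 had r = 0.67 with Rbm3, higher than that of 95.1% of genes, while the other 4 most similar genes lay between -0.36 (Nxpe4) and 0.34 (0610010F05Rik). Pdia3 had r = -0.37 there. For Cirbp, the most similar were Surf1 (r = 0.95; r = 0.41 in females), 1110004F10Rik, Ap1s1, Eif4b and Ino80c (r from -0.12 to 0.36 in females), and the least similar Kdm5c (r = -0.94; r = 0.18 in females), Uba6 and Usp31.

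For Hspa8, the most similar were Opa3 (r = 0.90), Dnaja4 (r = 0.86), Mmp11, C130021I20Rik and Myh7b, and the least similar Rars2 (r = -0.85), Lrrcc1 and Ofd1. Dnaja4, a J-domain co-chaperone of Hsp70, kept a similar r in females (0.80), higher than that of 98.2% of genes, whereas the other 4 lay between -0.19 (Mmp11) and 0.21 (Opa3). Hspa1b was most similar to Cant1 (r = 0.87), Sowahc, Dnajb11 (r = 0.85), Adarb1 and Tmem204, and least similar to Atxn3 (r = -0.92), Nap1l1 and Cdh8. Dnajb11, a J-domain partner of BiP, had r = 0.53 in females, Adarb1 0.64, Sowahc 0.36, Tmem204 0.046 and Cant1 -0.46. These correlations were picked as extremes among 14668 genes and are given as descriptions only.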

How the data were processed

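Total RNA of 22 right brain hemispheres was depleted of ribosomal RNA and sequenced from stranded libraries with single-end reads of 85 nt. According to the study's methods and the submitters' processing notes, reads were checked with FastQC 0.11.8, trimmed with cutadapt 1.15, cleared of ribosomal reads, mapped to mm10 (GRCm38) with STAR 2.6.0a and summarised per gene with featureCounts 1.6.2. Strand and multi-mapping settings are not given in the sources used here. The authors deposited raw counts per gene, with exon lengths, in a table for each sex. The depth of 12403943 to 16488762 counts sets the precision, and floors cover counting error only.

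Groups were taken from the sample titles. The counts were tested with edgeR 4.0.16 (TMM, filterByExpr with a minimum count of 10, quasi-likelihood F test) in R 4.3.3, with Benjamini-Hochberg adjustment over all genes tested and a threshold of 0.05. Ranks were compared within each sex and as an interaction over all 22 libraries, and cages by a joint test with rank in the model. CPM were scaled by TMM, and log2 CPM had a prior count of 2. Same-numbered mice came from the same cage and were killed together, so the numbers pair them. Deviations from group means correlated at 0.18 on average within male cages and at 0.02 within female cages (other pairs -0.03 and -0.01). Alternatives were DESeq2 1.42.0, its size factors, no filter, the cage as a block, removal of each library's trend on exon length (loess span 0.3), other sample sets and leaving out each replicate. The rank and cage fits within each sex were tested on simulated counts. The members and the gene lists were chosen with earlier results of these data known. Genes named are the 9 members, up to 4 called genes of each list by smallest p and, for Rbm3, Cirbp, Hspa8 and Hspa1b, the 5 most and 3 least similar genes. List genes named for an unadjusted p under 0.05 between female ranks were chosen after their values were seen.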

Additional observations from a re-analysis of the deposited data

Results flagged for a closer look

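Among the 36 groups of libraries examined (9 genes in 4 groups), a single sample was far from the others of its group by Dixon's test, where chance alone flags about 1 in 20 groups. Hspa5 had 355 CPM in dominant female 4, against 431 to 442 CPM in the other 3 dominant females. The gap to the nearest of them made up 0.867 of the whole range, above the critical value for 4 samples. The submissive cage mate of that mouse had 348 CPM, the lowest of the submissive females but close to the 349 CPM of submissive female 2. Submissive females 1 and 3 had 388 and 380 CPM. The cause was not tested.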

How the results depend on the processing

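With 4 females a rank, the number of genes called between female ranks (14) moved with most settings. It was 77 with DESeq2, 84 without a filter on low counts, 36 with the cage as a replicate block, 0 with the length trend removed (1120 at an unadjusted p under 0.05 by edgeR), 8 with the block and the length trend removed, and 0 in the fit of all 22 libraries (579). Leaving out 1 library gave 0 to 77 genes, with 77 without dominant female 2, 27 without submissive female 2, and 0 when submissive female 1 (1426 genes unadjusted) or submissive female 3 (1356) was left out. Cages 1 and 2 alone gave 5 and cages 3 and 4 alone 120 genes, subsets chosen after seeing the data. The lower level of Rbm3 and Cirbp and the higher level of Hspa5 in dominant females kept their direction in every setting run. Among the members, the block changed no call other than those of Rbm3 and Cirbp. With the block and the length trend removed, the adjusted p of Rbm3, Cirbp and Hspa5 was 0.0830, 0.111 and 0.0773, and in the fit of all 22 libraries it was 0.995 for each.

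Between male cages, the 868 genes became 511 with the length trend removed, 2 within cages 1 to 4, 0 within cages 5 to 7 (673 at an unadjusted p under 0.05 by edgeR), and 375 to 1841 with 1 cage left out (1841 without cage 1, 375 without cage 6). Between female cages, the 11 genes became 5 with DESeq2, 99 without a filter, where Hspa5 passed (adjusted p = 0.0156), and 2 to 31 with 1 cage left out. The median share of variance between cages was 65.5% to 84.9% in males and 56.5% to 69.8% in females with 1 cage left out. DESeq2 gave no adjusted p for Hspa1a and Hspa1b between male cages, so they have no value there.

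Of 603 rank and interaction values of the members, each 1 gene in 1 alternative setting, 32 turned in direction, and none of these values was called. Within male cages 1 to 4 alone, Cirbp turned to 0.019, Hsp90aa1 to -0.0029 and Dnajb1 to -0.022 on the log2 scale, and within cages 5 to 7 Hspa1b to -0.043. Within female cages 3 and 4, Hspa1a turned to -0.079 and Hspa1b to -0.0033. The interaction of Hspa8 was 0.0067 with the length trend removed. With 1 library left out, the rank difference in males ranged from -0.049 to 0.053 for Cirbp, -0.14 to 0.054 for Hspa1a, -0.049 to 0.089 for Hspa1b, -0.0018 to 0.029 for Hsp90aa1, -0.0080 to 0.074 for Dnajb1 and -0.021 to 0.10 for Hspa5. In females it ranged from -0.00020 to 0.16 for Hspa1a and from -0.011 to 0.050 for Hspa8, and the interaction of Hspa8 from -0.040 to 0.019. The causes were not tested.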

Other observations

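The 15 clock genes were listed beside the members because Cirbp and Rbm3 are known to act on messenger RNAs of the clock. Between female cages, 6 of them had an unadjusted p under 0.05, beside 5.11% of all genes, and none passed the adjusted threshold. Per2 was highest in female cage 1 (30.7 CPM) and lowest in cage 4 (23.5 CPM), and Per1 was highest in cage 4 (31.9 CPM) and lowest in cage 2 (23.9 CPM), so the period genes did not share an order of cages there. Creld2 and Xbp1, which peaked with Hspa5 in male cage 2, were lowest in female cage 4 with 10.96 and 97.8 CPM, the cage that was also lowest in Hspa5 (352 CPM). Sdf2l1 and Manf, which peaked in male cage 2 too, were lowest in female cage 2 (8.49 and 40.3 CPM).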
